A study of Mus musculus with 8 samples.

Results

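The mRNAs described here encode the 4 kinases of the translation factor eIF2α, HRI (Eif2ak1), PKR (Eif2ak2), PERK (Eif2ak3) and GCN2 (Eif2ak4), their substrate eIF2α itself (Eif2s1) and the mitochondrial protease OMA1 (Oma1). They were taken by gene symbol from the deposited counts, where all 6 were found among 24460 genes. RNA-Seq was performed on wild type mouse embryonic fibroblasts (MEFs), connective tissue cells grown in culture, exposed to RHPS4, a small molecule that binds G-quadruplexes (stacked structures of guanine-rich DNA or RNA). The untreated group (0 µM) and the 2 µM group had 3 libraries each and the 10 µM group had 2, and all cultures shared the same high-glucose medium with pyruvate. The study varied the dose because RHPS4 was held to disturb the transcription or the replication of mtDNA according to its concentration, and the comparisons between doses given here ask whether the mRNAs of the stress kinases themselves changed. The labels do not say which of 2 exposure times applied to these cultures, nor whether the libraries of a dose came from separate cultures, so the p-values measure only the spread between these libraries.

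Each eIF2α kinase senses a different disturbance. HRI answers to lack of heme and to mitochondrial and oxidative stress, PKR to double-stranded RNA, PERK to unfolded protein in the endoplasmic reticulum, and GCN2 to uncharged tRNA and stalled ribosomes. All of them phosphorylate the same serine of eIF2α, which lowers the supply of initiator tRNA to most mRNAs while the mRNA of the transcription factor ATF4 is translated better, and the genes then switched on by ATF4 make up the integrated stress response (ISR). In stressed mitochondria OMA1, a protease of the inner membrane, cleaves the protein DELE1, whose fragment reaches the cytosol and activates HRI. The kinases and OMA1 are switched on as proteins, by binding, phosphorylation or cleavage. Counts of mRNA show none of these steps, and phosphorylated eIF2α was not measured in these libraries.

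Libraries held between 10455965 and 26688121 counts, and 14296 genes passed the filter on low counts and were tested. All 6 mRNAs passed it, with the fewest counts for Oma1 (108 to 253 per library) and the most for Eif2s1 (1649 to 3703). The first 0 µM library stood apart from the second and the third (chi-square per degree of freedom 15.4 and 20.2, against 3.23 between the second and the third), so its removal is named where it changes a call. The share of all counts taken by mtDNA transcripts fell with dose, from 13.2 to 14.4% at 0 µM to 7.40 to 8.26% at 2 µM and 5.33 to 6.32% at 10 µM. With scaling over nuclear genes only, the log2 fold change of Eif2ak2 between 10 µM and 2 µM was 0.59, against 0.60 in the main fit. Between 2 µM and 0 µM it was -0.38 against -0.39 for Eif2ak3 and 0.38 against 0.36 for Eif2s1. Any part of this fall beyond the scaling was not tested. All 10 fibroblast markers were detected. Their summed level ran from 12754 to 13261 CPM (counts scaled to a common library size) at 0 µM, 11426 to 11772 CPM at 2 µM and 11123 to 11705 CPM at 10 µM. At 2 µM 9 of the 10 had a log2 fold change under 0 against 0 µM, with a median of -0.33 (-0.01 over all tested genes). For 4 of the 10 all 2 µM libraries lay lower, as for 12.9% of all tested genes. At 10 µM all 10 had a log2 fold change under 0 against 0 µM, from -0.60 to -0.005, where the median of all tested genes was 0.02. Libraries of the 2 doses did not overlap for 3 of the 10 (42.9% of all tested genes in either direction). The growth factor receptor gene Pdgfrb was called lower (log2 -0.60, SE 0.0684, adjusted p = 0.000248), as were 163 of the 14296 tested genes. The 7 macrophage and leukocyte markers summed to 24.0 to 25.5, 18.3 to 21.7 and 16.3 to 18.8 CPM. Most of this sum was Cd14, at 15.2 ± 1.45 CPM at 0 µM and 7.81 ± 0.250 CPM at 10 µM. Cd14 too was called lower (log2 -0.95, SE 0.13, adjusted p = 0.000868). Of the 6 tested markers of this list 5 had a log2 fold change under 0 at 10 µM against 0 µM. The exception was the macrophage marker Adgre1, at 0.576 ± 0.327 and 1.21 ± 0.281 CPM, with both 10 µM libraries above all 0 µM libraries (adjusted p = 0.128). The 6 epithelial markers summed to at most 5.07 CPM and the 5 endothelial markers to at most 6.47 CPM. In such bulk samples, fewer cells of a type and less RNA per cell cannot be told apart.

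Levels are given as CPM after scaling the libraries with edgeR's TMM method, and levels of different genes are compared only as CPM per kilobase of annotated exon. On this per-length scale the substrate stood highest in untreated cells. Eif2s1 was at 30.8 ± 3.35 CPM per kilobase (SD, n = 3), Eif2ak2 at 15.6 ± 0.424, Eif2ak4 at 9.93 ± 0.688, Eif2ak1 at 9.11 ± 0.755, Eif2ak3 at 5.14 ± 0.554 and Oma1 at 4.76 ± 0.435. The libraries of neighbours in this order did not overlap except those of Eif2ak4 with Eif2ak1 and those of Eif2ak3 with Oma1. At 2 µM and 10 µM the first 4 places were held by the same genes, while Oma1 (4.80 ± 0.0992 and 5.48 ± 0.221 CPM per kilobase) lay above Eif2ak3 (3.94 ± 0.159 and 4.91 ± 0.0208) with no overlap of libraries. PKR mRNA was thus the most abundant of the kinase mRNAs at every dose, and PERK mRNA the least.

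**Figure D1:**
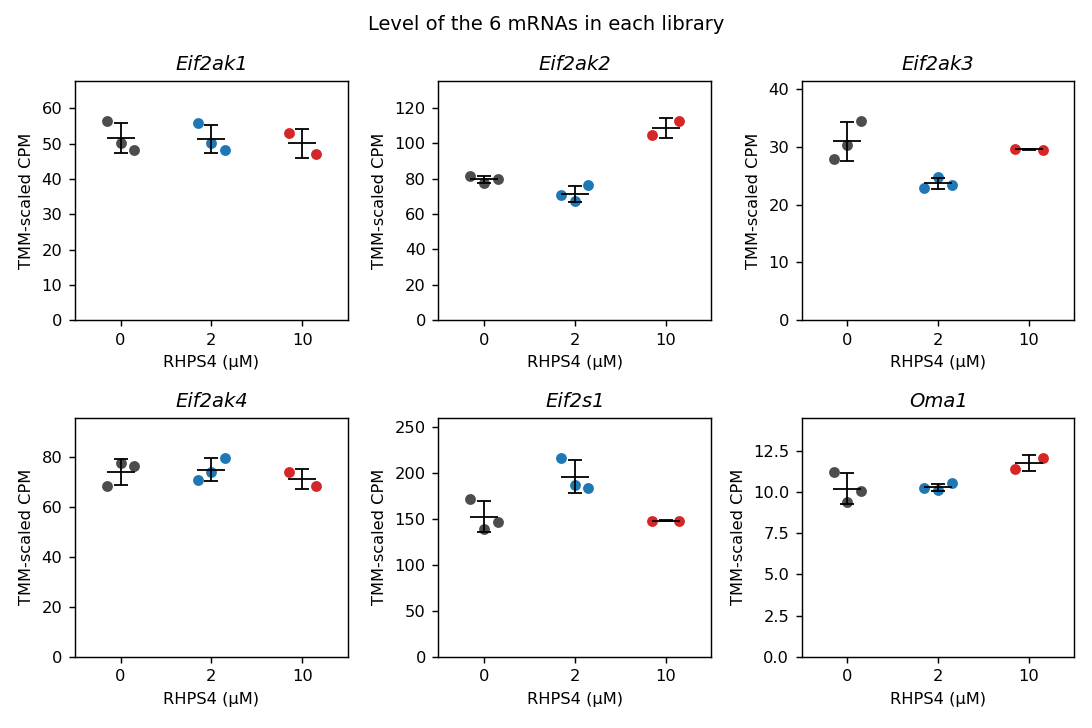
TMM-scaled CPM of the 6 mRNAs (vertical axes, each from 0) in every library at 0, 2 and 10 µM RHPS4 (horizontal axes), with one point per library and the mean ± SD in black (n = 3, 3 and 2). Both 10 µM libraries of Eif2ak2 lie above all others, the 2 µM libraries of Eif2ak3 lie lowest and those of Eif2s1 highest, and the points of Eif2ak1 and Eif2ak4 overlap across doses.

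Calling a gene changed took both an adjusted p below 0.01 and more than a 1.5-fold difference, in edgeR's quasi-likelihood test with Benjamini-Hochberg adjustment over all tested genes. By this rule 0 of the 6 mRNAs were called between 2 µM and 0 µM (0.497% of all tested genes were), 0 between 10 µM and 0 µM (3.09%) and 1, Eif2ak2, between 10 µM and 2 µM (5.51%). DESeq2 called 0 in each comparison. At an unadjusted p under 0.05 there were 2, 1 and 3 of 6, where 21.3%, 29.4% and 36.5% of all tested genes were, and the counts at an unadjusted p given for the related lists have the same background. With any fold, 0, 1 and 1 of the 6 had an adjusted p under 0.01 (0.748%, 5.23% and 10.8% of all genes). At an adjusted p under 0.05 with any fold there were 2 of 6 between 2 µM and 0 µM (4.16% of all genes), 1 between 10 µM and 0 µM (13.9%) and 3 between 10 µM and 2 µM (23.4%). Libraries of the 2 doses did not overlap for 3, 2 and 4 of the 6 mRNAs, where 25.7%, 42.9% and 51.8% of all tested genes did not overlap. The median log2 fold change over all tested genes was -0.01, 0.02 and 0.03.

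**Figure D2:**
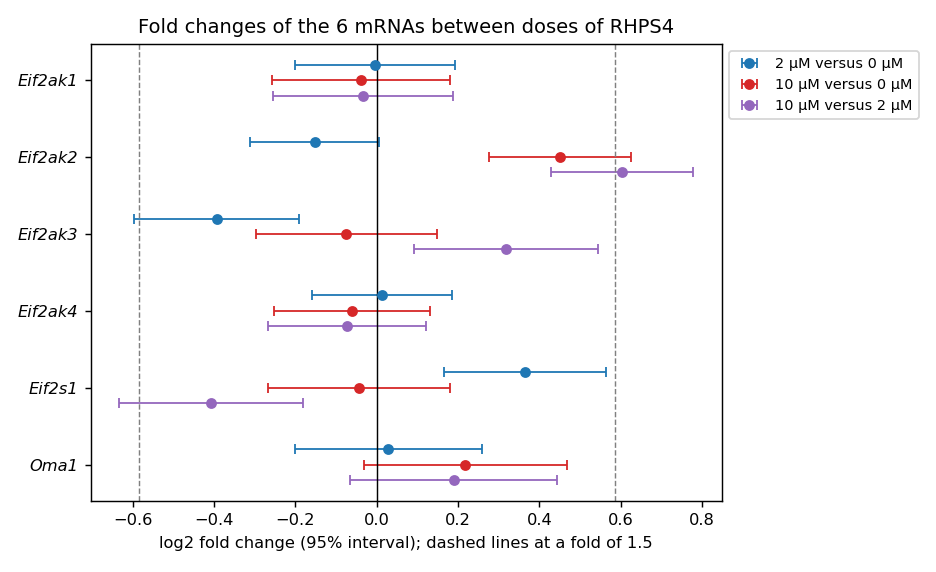
Log2 fold change of each of the 6 mRNAs (horizontal axis) with its 95% interval from edgeR's fit, for 2 µM versus 0 µM, 10 µM versus 0 µM and 10 µM versus 2 µM, with dashed lines at a fold change of 1.5 in either direction. Eif2ak2 lies to the right in both comparisons with 10 µM, Eif2ak3 and Eif2s1 lie on opposite sides of 0 at 2 µM, and every interval of Eif2ak1, Eif2ak4 and Oma1 includes 0.

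PKR is a kinase that binds double-stranded RNA, and its gene is itself induced by interferon. Eif2ak2 (ENSMUSG00000024079.4) lies on chromosome 17 of GRCm38 from 78852564 to 78882573, on the minus strand. It was at 81.8, 77.5 and 79.7 CPM in the 0 µM libraries, at 70.9, 67.3 and 76.4 CPM in the 2 µM libraries and at 104.8 and 112.8 CPM in the 10 µM libraries. The 3 doses did not overlap, with the 2 µM libraries lowest and the 10 µM libraries highest. Between 10 µM and 2 µM the mRNA rose by a log2 fold change of 0.60 (SE 0.0797, adjusted p = 0.000486), a fold of 1.52 (95% interval 1.35 to 1.71). Between 10 µM and 0 µM the log2 fold change was 0.45 (SE 0.0793, adjusted p = 0.00411), a fold of 1.37 (1.21 to 1.54) that stayed under the minimum of 1.5. Between 2 µM and 0 µM it was -0.15 (SE 0.0725, adjusted p = 0.251). The call between 10 µM and 2 µM sat at the edge of the fold threshold and was lost with DESeq2 and with no filter on low counts (both log2 0.56), and when the first (0.57) or second (0.58) 0 µM library, the second 2 µM library (0.56) or the second 10 µM library (0.51, adjusted p = 0.0118) was left out. Over all alternatives the log2 fold change ran from 0.51 to 0.74 with adjusted p-values from 5.52e-06 to 0.0118.

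Many interferon-induced promoters carry the interferon-stimulated response element (ISRE). The motif was searched as GAAANNGAAA, on both strands, in the windows that RefSeq gives for GRCm38.p6 from 250 bases before to 50 after each gene's start, which hold all 6 genes (7 windows, since Eif2ak4 has 2). It was found in 3.44% of all 32851 windows. Among the 6 genes it was found once in Eif2ak2 and once in Eif2s1. Of 18 interferon-stimulated genes listed for this work, 12 had a window and 8 of these held the motif. These 8 genes held 13 matches, of which 1 each is printed for 5 genes, picked as examples after the matches were seen, to set the match of PKR beside them. Each is given with 8 bases on either side. It is written 5′ to 3′ on the strand that reads GAAANNGAAA, with the motif in capitals.
Eif2ak2 (chr17:78882537-78882562, minus strand): tccgccggGAAAACGAAAcagaagag
Eif2s1 (chr12:78861852-78861877, plus strand): tggagcaaGAAACAGAAActtacctc
Isg15 (chr4:156200873-156200898, minus strand): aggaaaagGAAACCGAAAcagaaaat
Ifit1 (chr19:34640796-34640821, minus strand): agcagtgaGAAACTGAAActgagact
Ifit3 (chr19:34583399-34583424, minus strand): ggaaagtaGAAACTGAAAcagactta
Oas1a (chr5:120907528-120907553, minus strand): cttctcggGAAATGGAAActgaaaat
Ddx58 (chr4:40239806-40239831, plus strand): ggccatagGAAATCGAAActgcctca

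The motif of Eif2ak2 began 18 bases after the RefSeq start, on the strand of the gene. It fell in an exon that GENCODE annotates as untranslated, where an exon of the opposite-strand noncoding gene Gm26637 also lies. That of Eif2s1 began at position -212 from its RefSeq start, also on the gene's strand and in a stretch that GENCODE annotates as an untranslated exon of a longer transcript. A match is a run of letters and not a measured site, and whether either match acts in these cells was not tested. A CARE motif (TGATGNAAN, the kind of site that ATF4 binds, in 3.95% of windows) and an ERSE (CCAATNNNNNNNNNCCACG, the kind bound by ATF6, in 0.119%) were not found in the windows of the 6 genes. A G-quadruplex run motif, 4 runs of at least 3 guanines with gaps of 1 to 7 bases on either strand, was in 18.6% of all windows and in none of the 7.

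The interferon-stimulated genes are those that Eif2ak2 belongs to by its regulation, and they are counted here without it. Their list was chosen with earlier results of these data known, so its counts are a description and no independent test. At 10 µM 14 of the 18 rose and 0 fell against 0 µM, where 1.95% of all tested genes rose, and the median log2 fold change over the 18 was 1.27. Mx1, a GTPase that blocks virus replication, was at 5.19 ± 0.280 CPM without RHPS4 and 19.5 ± 0.433 CPM at 10 µM (log2 1.92, SE 0.155, adjusted p = 2.13e-05). Ifit3, an RNA-binding antiviral protein, went from 35.5 ± 3.21 to 109 ± 0.674 CPM (log2 1.63, adjusted p = 1.36e-06). Against 2 µM 17 of 18 rose, with a median of 1.84, where 3.92% of all tested genes rose. At 2 µM 2 fell against 0 µM, where 0.378% of all tested genes fell, namely Ifit1 (log2 -0.68, SE 0.0888, adjusted p = 0.00277) and Rsad2 (log2 -1.002, SE 0.123, adjusted p = 0.00218), both antiviral proteins. All 2 µM libraries lay under all 0 µM libraries for 15 of the 18, as for 12.9% of all tested genes, and the median was -0.52. Eif2ak2 had the order of doses of the list medians at a smaller size. Not every gene of the list did so. Ifit2 had log2 fold changes of 0.003 at 2 µM and 0.32 at 10 µM against 0 µM, and 0.31 between 10 µM and 2 µM, smaller than those of Eif2ak2. The 2 calls at 2 µM went to 0 when the second 0 µM library or any of the 2 µM libraries was left out, and to 1 without the third 0 µM library. Ptprc, which marks all leukocytes, had 9 to 17 counts per library, with overlapping libraries at 0 and 10 µM (log2 -0.19, SE 0.359). Of the 6 tested leukocyte markers only Adgre1 had a log2 fold change above 0 at 10 µM (0.98, SE 0.396, adjusted p = 0.128), and Cd14 was called lower. What leukocytes add to the interferon-stimulated mRNAs was not tested.

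Among 6 proteins that bind double-stranded RNA with PKR or hold it in check, 0 were called in any comparison by edgeR or DESeq2, though 0, 5 and 4 had an unadjusted p under 0.05 between 2 µM and 0 µM, 10 µM and 0 µM, and 10 µM and 2 µM. Prkra, which encodes the PKR activator PACT, was at 24.1 ± 1.20 CPM at 0 µM, 24.7 ± 1.09 at 2 µM and 33.9 ± 0.555 at 10 µM (log2 0.49, SE 0.0871, adjusted p = 0.0042 against 0 µM). Adar, whose enzyme edits adenosines in double-stranded RNA, was at 73.2 ± 4.16, 66.2 ± 1.96 and 95.9 ± 7.48 CPM (log2 0.54, SE 0.0819, adjusted p = 0.00115 against 2 µM). Tarbp2, which encodes TRBP, was at 17.4 ± 1.15, 19.3 ± 0.735 and 13.8 ± 1.28 CPM (log2 -0.48, adjusted p = 0.00845 against 2 µM), and Dnajc3, which encodes the inhibitor P58IPK of PKR and PERK, at 196 ± 10.0, 205 ± 2.33 and 158 ± 6.43 CPM (log2 -0.37, adjusted p = 0.00524). All 4 stayed under a fold of 1.5. Dhx9, a helicase and the gene with the most counts of the list, was at 319 ± 77.3, 277 ± 78.6 and 201 ± 6.91 CPM. Between 10 µM and 0 µM its log2 fold change was -0.67 (SE 0.225, adjusted p = 0.0713), past the minimum fold but not the adjusted p. Both 10 µM libraries lay under all 0 µM libraries. Without the first 0 µM library Dhx9 was called lower at 10 µM.

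PERK spans the membrane of the endoplasmic reticulum and is held inactive by the chaperone BiP. Eif2ak3 (ENSMUSG00000031668.14, chromosome 6, 70844515 to 70905245, plus strand) was at 27.9, 30.4 and 34.5 CPM at 0 µM, at 22.9, 24.8 and 23.5 CPM at 2 µM and at 29.7 and 29.5 CPM at 10 µM. The 2 µM libraries lay under all others, and the 10 µM libraries lay within the range of the 0 µM libraries. The log2 fold change between 2 µM and 0 µM was -0.39 (SE 0.0925, adjusted p = 0.0403), a fold of 0.761 (95% interval 0.661 to 0.876), which did not pass the adjusted p of 0.01. Its adjusted p ran from 0.0111 without the first 0 µM library to 0.204 without the third. Between 10 µM and 2 µM the log2 fold change was 0.32 (SE 0.103, adjusted p = 0.0455), and between 10 µM and 0 µM it was -0.07 (SE 0.101, adjusted p = 0.666, fold interval 0.814 to 1.11).

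Of 7 genes around PERK, 0 were called by edgeR or DESeq2, with 1, 3 and 2 at an unadjusted p under 0.05. Hsp90b1, the chaperone GRP94 and the one with the most counts, was at 1426 ± 55.8 CPM at 0 µM and 1251 ± 5.15 CPM at 10 µM (adjusted p = 0.147). Hspa5, which encodes BiP, was at 883 ± 79.0, 911 ± 36.1 and 939 ± 8.60 CPM, with overlapping libraries (log2 0.09, adjusted p = 0.544 between 10 µM and 0 µM). Atf6, which encodes another sensor of unfolded protein, was at 76.3 ± 0.566, 82.7 ± 1.72 and 105 ± 1.99 CPM (log2 0.46, SE 0.0682, adjusted p = 0.00156 between 10 µM and 0 µM), under the minimum fold.

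HRI is the kinase named in the relay from mitochondria. Eif2ak1 (ENSMUSG00000029613.15, chromosome 5, 143817788 to 143904251, plus strand) was at 56.5, 50.3 and 48.2 CPM at 0 µM, at 55.9, 50.2 and 48.1 CPM at 2 µM and at 53.1 and 47.1 CPM at 10 µM. Libraries of the 3 doses overlapped throughout. The fold was 0.997 at 2 µM (95% interval 0.870 to 1.14, adjusted p = 0.987) and 0.974 at 10 µM (0.837 to 1.13, adjusted p = 0.837) against 0 µM, so the intervals leave out a change of 1.5-fold. Eif2ak1 overlaps Aimp2 (538 to 1240 counts per library) and Ankrd61 (4 to 18 counts) on the opposite strand. The libraries mark strand, but whether the counting used it is not given in the sources used here.

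The 7 genes around HRI encode chaperones and a co-chaperone that bind the kinase and enzymes of heme metabolism. Against 0 µM, 0 were called at either dose by edgeR or DESeq2, with 2 and 3 at an unadjusted p under 0.05. Between 10 µM and 2 µM 1 of the 7 fell, where 1.59% of all tested genes did. That was Hspa8, the constitutive chaperone HSC70, which was at 2701 ± 422 CPM at 0 µM, 3184 ± 191 CPM at 2 µM and 1966 ± 141 CPM at 10 µM (log2 -0.70, SE 0.126, adjusted p = 0.00299 against 2 µM). Hsp90ab1, with the most counts of the list, was at 2989 ± 226, 3197 ± 168 and 2665 ± 37.4 CPM (adjusted p = 0.0696 against 2 µM). Hsp90aa1 was at 795 ± 68.9, 936 ± 60.1 and 652 ± 58.3 CPM (log2 -0.52, SE 0.0997, adjusted p = 0.00404 against 2 µM), under the minimum fold. Alas1, the first enzyme of heme synthesis, was at 23.1 ± 1.16, 26.0 ± 1.35 and 29.9 ± 1.21 CPM with no overlap between doses (log2 0.37, adjusted p = 0.0218 between 10 µM and 0 µM). Hmox1, which breaks heme down, was at 34.9 ± 3.71, 26.5 ± 3.01 and 33.5 ± 2.05 CPM.

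GCN2 is the kinase that senses amino acid shortage. Eif2ak4 (ENSMUSG00000005102.13, chromosome 2, 118388618 to 118475234, plus strand) was at 68.2, 77.7 and 76.4 CPM at 0 µM, at 70.8, 74.0 and 79.8 CPM at 2 µM and at 74.0 and 68.3 CPM at 10 µM, and the libraries of all doses overlapped. Its fold against 0 µM was 1.01 at 2 µM (95% interval 0.895 to 1.14, adjusted p = 0.944) and 0.959 at 10 µM (0.839 to 1.10, adjusted p = 0.689). Of 5 genes around GCN2, 0 were called in any comparison by edgeR or DESeq2, with 0, 2 and 1 at an unadjusted p under 0.05. Gcn1l1, the ribosome-bound activator GCN1 and the one with the most counts, was at 270.0 ± 21.99, 276 ± 24.7 and 247 ± 0.4999 CPM. Asns, an amino acid enzyme downstream of the pathway, is given with the ISR targets.

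The substrate mRNA was highest at 2 µM. Eif2s1 (ENSMUSG00000021116.10, chromosome 12, 78861819 to 78887010, plus strand) was at 171.2, 139.5 and 147.0 CPM at 0 µM, at 216.8, 187.3 and 184.1 CPM at 2 µM and at 148.2 and 147.4 CPM at 10 µM. The 2 µM libraries lay above all others. The log2 fold change between 2 µM and 0 µM was 0.36 (SE 0.0912, adjusted p = 0.0493), a fold of 1.29 (95% interval 1.12 to 1.48), and between 10 µM and 2 µM it was -0.41 (SE 0.103, adjusted p = 0.0158), so that neither passed the adjusted p of 0.01. The first 0 µM library was the highest of its dose. Without it the log2 fold change at 2 µM was 0.46 (adjusted p = 0.00732), still under a fold of 1.5, and over the libraries left out in turn the adjusted p reached 0.199. Between 10 µM and 0 µM the fold was 0.971 (0.831 to 1.13, adjusted p = 0.818).

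The other subunits of eIF2, those of its exchange factor eIF2B and its GTPase-activating protein eIF5 made a list of 9 genes, of which 8 were tested. The Y-linked Eif2s3y had 0 counts in every library, which allows a level of up to 0.112 CPM at the greatest depth and 0.287 CPM at the least. In the 3 comparisons 0 of the 8 were called by edgeR or DESeq2, while 4, 0 and 5 had an unadjusted p under 0.05. At 2 µM all libraries lay above the 0 µM libraries for 4 of 8 (12.7% of all tested genes), and the median log2 fold change was 0.21. Between 10 µM and 2 µM 5 of 8 had all libraries lower (24.9% of all tested genes), and the median was -0.26. Eif2b1, the α subunit of eIF2B, was at 62.2 ± 7.88, 75.03 ± 1.27 and 54.0 ± 1.21 CPM (log2 -0.47, SE 0.099, adjusted p = 0.00627 between 10 µM and 2 µM). Eif5, with the most counts of the list, was at 427 ± 27.1, 499 ± 8.21 and 419 ± 0.812 CPM, the same order of doses as Eif2s1.

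The phosphate that the kinases place is removed by protein phosphatase 1 with one of 2 targeting subunits. Ppp1r15a, which encodes the stress-induced subunit GADD34, was at 13.9 ± 0.431 CPM at 0 µM, 12.1 ± 1.73 at 2 µM and 24.8 ± 3.76 at 10 µM. It rose at 10 µM against both lower doses, by a log2 fold change of 0.84 (SE 0.13, adjusted p = 0.00196) against 0 µM and 1.05 (SE 0.134, adjusted p = 0.000408) against 2 µM. Ppp1r15b, which encodes the constitutive subunit CReP, was at 107 ± 10.3, 118 ± 12.2 and 109 ± 4.32 CPM (adjusted p = 0.913 between 10 µM and 0 µM). Of the 3 catalytic subunits, Ppp1ca had the most counts, at 432 ± 32.0, 478 ± 23.4 and 415 ± 8.35 CPM. Ppp1cc was lowest at 10 µM, at 110.2 ± 1.23, 124 ± 11.8 and 82.5 ± 11.0 CPM (log2 -0.58, SE 0.102, adjusted p = 0.00251 against 2 µM), just under the minimum fold. DESeq2 called it lower, as did edgeR with RLE scaling, with TMM over nuclear genes, with no filter on low counts, with the replicate block and without the first 0 µM library, among other libraries left out.

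OMA1 starts the relay inside mitochondria. Oma1 (ENSMUSG00000035069.3, chromosome 4, 103313812 to 103371868, plus strand) was at 11.2, 9.37 and 10.0 CPM at 0 µM, at 10.2, 10.1 and 10.5 CPM at 2 µM and at 11.4 and 12.1 CPM at 10 µM. Both 10 µM libraries lay above all others, by little. The fold was 1.02 at 2 µM (95% interval 0.869 to 1.20, adjusted p = 0.907) and 1.16 at 10 µM (0.978 to 1.38, adjusted p = 0.230) against 0 µM. With 108 to 253 counts per library it was the least precisely measured of the 6.

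Among 10 genes around OMA1 and DELE1, 0 were called in any comparison by edgeR or DESeq2, with 4, 1 and 4 at an unadjusted p under 0.05 and median log2 fold changes of 0.11, 0.05 and -0.04. Dele1, listed in the files as 0610009O20Rik, was at 54.0 ± 3.57, 56.0 ± 1.33 and 51.3 ± 1.13 CPM (log2 -0.07, SE 0.0807, adjusted p = 0.607 between 10 µM and 0 µM). Yme1l1, a second inner membrane protease that acts beside OMA1 and the gene with the most counts of the list, was at 225 ± 14.98, 235 ± 4.88 and 243 ± 30.5 CPM. Opa1, the fusion GTPase cut by both proteases, was at 104 ± 1.98, 109 ± 3.45 and 113 ± 3.88 CPM. Atad3a, an inner membrane ATPase, was highest at 2 µM, at 82.0 ± 3.65, 102 ± 2.40 and 84.6 ± 2.42 CPM (log2 0.32, adjusted p = 0.027 between 2 µM and 0 µM).

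The make-up of the kinase mRNAs was also taken within each library, as the share of each kinase in the summed counts per exon length of all 4, which does not depend on how libraries are scaled to each other. In untreated libraries Eif2ak2 made up 40.3, 38.4 and 38.9%. Its share was 37.4, 36.5 and 39.3% in the 2 µM libraries, and those given 10 µM had 45.8 and 49.7%. Both 10 µM libraries lay above all untreated ones, by 8.57 percentage points on average. The shares of the other 3 kinases each lay lower there. Shares of a library add up to the whole, so a larger share of Eif2ak2 makes the others smaller, and the 4 differences are not separate results. In CPM the folds between 10 µM and 0 µM were 0.974 for Eif2ak1, 0.949 for Eif2ak3 and 0.959 for Eif2ak4, with overlapping libraries. Eif2ak1 went from 22.9% ± 1.95 (SD, n = 3) at 0 µM to 24.5% ± 2.16 at 2 µM and 19.8% ± 1.58 (n = 2) at 10 µM. Eif2ak4 went from 25.0% ± 1.75 to 27.1% ± 1.30 and 21.4% ± 1.11, and Eif2ak3 from 12.9% ± 1.33 to 10.6% ± 0.662 and 11.0% ± 0.000548. In two-sided exact permutation tests each of the 4 differences between 10 µM and 0 µM had p = 0.2, the smallest that 3 against 2 libraries allow, and that of Eif2ak3 between 2 µM and 0 µM had p = 0.1, the smallest for 3 against 3. The adjusted p over the 8 tests was 0.267 for these, so the design could not reach 0.05. The shares rest on the annotated exon length, and with coding length Eif2ak2 took 49.7% and Eif2ak4 14.5% at 0 µM.

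The summed kinase mRNAs were also divided by Eif2s1, per exon length, a ratio chosen after the values above had been seen. In untreated libraries it was 1.15, 1.40 and 1.35. The 2 µM libraries had ratios of 0.845, 0.953 and 1.02, and both 10 µM libraries had 1.49. The ratio was lowest at 2 µM and highest at 10 µM, an order that the values of Eif2ak2 and Eif2s1 had already shown, so it is given with no test.

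Downstream of eIF2α, 13 of 14 listed ISR transcription factors and targets were tested (Gdf15, with 0 to 14 counts, was not). This list too was chosen with earlier results of these data known, so its counts are a description. At 2 µM 0 were called by edgeR and 1 by DESeq2, Ddit4, a stress-induced inhibitor of mTORC1, which fell, with 6 at an unadjusted p under 0.05 and a median log2 fold change of -0.05. Without the first 0 µM library edgeR called Ddit4 too, as it did with no filter on low counts. At 10 µM 8 of 13 rose and 0 fell against 0 µM, where 1.95% of all tested genes rose, and the median was 1.20. Trib3, a pseudokinase that binds ATF4, went from 9.61 ± 2.24 CPM at 0 µM and 9.09 ± 1.81 at 2 µM to 53.6 ± 15.1 CPM at 10 µM (log2 2.495, SE 0.21, adjusted p = 2.82e-05). Chac1, which degrades glutathione, went from 18.0 ± 1.63 and 20.7 ± 0.733 to 74.0 ± 3.71 CPM (log2 2.05, adjusted p = 4.64e-07). The transcription factor Atf3 went from 3.95 ± 0.346 and 2.83 ± 0.382 to 15.1 ± 0.489 CPM (log2 1.96, adjusted p = 7.92e-06), and Ddit3, which encodes CHOP, from 21.4 ± 1.05 and 16.4 ± 3.05 to 53.4 ± 5.77 CPM (log2 1.32, adjusted p = 8.49e-05). Sesn2, a stress-induced regulator of mTORC1, rose by log2 1.53, Nupr1, a stress-induced chromatin protein, by 1.25, the transcription factor Atf5 by 1.20 and Asns, which makes asparagine, by 1.16. Atf4 itself, whose protein is set mainly by translation, was at 303 ± 34.8, 346 ± 15.2 and 444 ± 7.64 CPM (log2 0.56, SE 0.0938, adjusted p = 0.00326), just under the minimum fold, and was called without the first 0 µM library, which made 9 genes of the list. Psat1, an enzyme of serine synthesis and the gene with the most counts of the list, was at 433 ± 38.7, 496 ± 7.04 and 601 ± 51.2 CPM (log2 0.47, adjusted p = 0.00607).

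**Figure D3:**
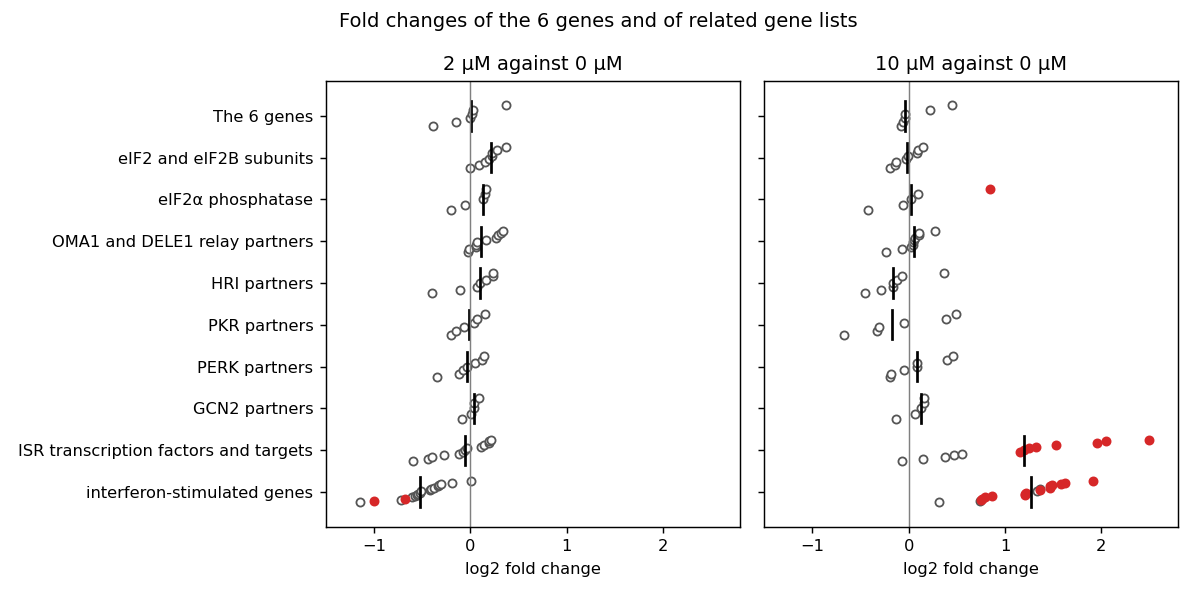
Log2 fold change of each tested gene of the 6 members and of 9 related lists (rows) between 2 µM and 0 µM (left) and between 10 µM and 0 µM (right), with genes called changed as filled red points, others open, and each list's median as a black bar. At 10 µM 8 of 13 ISR genes, 14 of 18 interferon-stimulated genes and 1 of 5 phosphatase genes are called, against 0 in the other lists, while at 2 µM 2 interferon-stimulated genes are called, both lower.

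The genes whose log2 CPM followed each of the 6 most closely over the 8 libraries are given as a description, with Pearson's r among 14295 other genes and with libraries of 3 doses in common. Eif2ak2 was followed by Fam171b (r = 0.998), Mtm1, which encodes the lipid phosphatase myotubularin (0.995), and Irgm1, an interferon-inducible GTPase (0.993). Eif2ak3 was followed by Trim2 (0.975), Ero1l, the oxidase that forms disulfide bonds in the endoplasmic reticulum (0.970), and the bicarbonate transporter Slc4a7 (0.968). Eif2s1 was followed by Dbf4, the activating subunit of a replication kinase (0.994), Gfm1, a mitochondrial elongation factor (0.988), and Mak16, which acts in ribosome assembly (0.985). For Oma1 these were the proteasome activator Psme2 (0.991), Perp (0.980) and Erlin2 (0.979). For Eif2ak1 they were the minor spliceosome gene Snrnp35 (0.964), the spectrin gene Sptan1 (0.962) and the ubiquitin ligase Rnf20 (0.934), and for Eif2ak4 5830417I10Rik (0.978), the bicarbonate transporter Slc4a4 (0.976) and Dennd1b (0.975). The libraries of Eif2ak1 and Eif2ak4 overlapped at all doses.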

How the data were processed

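The values were made from the counts per gene that the authors deposited, 1 file per library, whole numbers without normalization. Total RNA was depleted of nuclear ribosomal RNA, made into strand-specific TruSeq libraries and read as paired reads of 75 bp. The submitters' processing notes name FastQC, Trim Galore, cutadapt, STAR 2.5.2a and featureCounts with the build mm10, and the strand setting and annotation are not given in the sources used here. Total counts of 10455965 to 26688121 set the precision, and limits for a count of 0 hold for counting error alone, as PCR duplicates are not separate molecules.

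Doses were compared in edgeR 4.0.16 (R 4.3.3) with TMM, filterByExpr and the quasi-likelihood test, in one fit of all 8 libraries with no factor but dose, which lends the 2 libraries at 10 µM the spread of the others. The standard error is the log2 fold change over the square root of F. The study used DESeq2, run here as an alternative (1.42.0). The other alternatives were RLE, TMM over nuclear genes and total counts, 2 other filters, other thresholds, only the groups compared, a replicate block and each library left out. The fits were tested on simulated counts. A first limit on recovered changes was missed under another random seed, and limits on false calls, bias and recovery over several seeds, set after this was seen, were met. Exon lengths came from GENCODE vM21 (GRCm38), with 23385 of 24460 symbols matched, and promoter windows from RefSeq. Python 3.11.15 with scipy 1.17.1 did the rest.

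The 6 members and the gene lists were chosen with earlier results of these data known. Named are the members, list genes called in some comparison or with the most counts in their list, and the 3 genes most like each member. List genes named beside these (Prkra, Adar, Tarbp2, Dnajc3, Hspa5, Atf6, Hsp90aa1, Alas1, Hmox1, Ddit4, Dele1, Opa1, Atad3a, Eif2b1, Ppp1r15b, Ppp1cc, Atf4, Ifit2 and the markers Ptprc and Adgre1) were chosen after their values were seen. No protein sequence was used here, and 1 listed gene is not reported by name.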

Additional observations from a re-analysis of the deposited data

How the results depend on the processing

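The 10 µM group had 2 libraries, which limits every comparison with it. The call of Eif2ak2 between 10 µM and 2 µM kept its direction under every alternative run and its call under 10 of 16. Its log2 fold change was 0.56 with DESeq2 and 0.56 without a filter on low counts, and 0.51 (without the second 10 µM library, adjusted p = 0.0118) to 0.63 with each library left out in turn. In the other settings without a call the adjusted p stayed under 0.01 and the fold fell under 1.5, among them without the first or second 0 µM library (0.57 and 0.58) and without the second 2 µM library (0.56). Scaling by library totals alone moved the median log2 fold change of all tested genes from 0.02 to 0.23 between 10 µM and 0 µM and from 0.03 to 0.16 between 10 µM and 2 µM, and is read against that shift. Under it Eif2ak2 was called between 10 µM and 0 µM at 0.67, and the values near 0 changed sign for Eif2ak1 (0.18), Eif2ak3 (0.14), Eif2ak4 (0.15) and Eif2s1 (0.18), as did those between 10 µM and 2 µM for Eif2ak1 (0.10) and Eif2ak4 (0.0617). Between 2 µM and 0 µM Eif2ak1 turned sign at 0.000346 with DESeq2, 0.00686 with TMM over nuclear genes, 0.0779 with library totals, 0.000111 with no filter and 0.00519 with only the groups compared. With each library left out in turn, the uncalled values that changed sign ran from -0.0661 to 0.0661 for Eif2ak1, -0.0315 to 0.0533 for Eif2ak4 and -0.0262 to 0.0904 for Oma1 between 2 µM and 0 µM, from -0.16 to 0.0164 for Eif2ak1, -0.16 to 0.0182 for Eif2ak3 and -0.12 to 0.0209 for Eif2s1 between 10 µM and 0 µM, and from -0.16 to 0.0248 for Eif2ak1 between 10 µM and 2 µM. The causes were not tested.

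The number of genes called over the whole table was 71 between 2 µM and 0 µM, 442 between 10 µM and 0 µM and 788 between 10 µM and 2 µM. It was 109 with DESeq2 at 2 µM, 914 with library totals at 10 µM, 107, 747 and 1539 with no minimum fold, and 595, 1991 and 3346 at an adjusted p under 0.05 with no minimum fold. Leaving out each library gave 6 (without the second 2 µM library) to 144 (without the first 0 µM library), 235 (without the second 10 µM library) to 633, and 444 (without the second 10 µM library) to 884. At 2 µM 19 and 15 genes were called without the second or the third 0 µM library and 24 and 29 without the first or the third 2 µM library. Without the second or the third 0 µM library 266 and 293 were called between 10 µM and 0 µM, and without the second 2 µM library 515 between 10 µM and 2 µM. Library totals also moved the split of genes higher and lower, from 17 and 54 to 26 and 40, from 279 and 163 to 846 and 68, and from 561 and 227 to 923 and 84. More genes were lower than higher between 10 µM and 0 µM with DESeq2 (235 higher, 269 lower), with no filter (275 and 285), without the first 0 µM library (286 and 347) and without the first 10 µM library (160 and 170), and between 10 µM and 2 µM without the first 10 µM library (322 and 335). DESeq2 gave 464 and 350 there. The share of each kinase at 0 µM moved with the length used. With coding length it was 26.8% for Eif2ak1, 49.7% for Eif2ak2, 8.95% for Eif2ak3 and 14.5% for Eif2ak4, and with the longest transcript 36.0% for Eif2ak2 and 27.3% for Eif2ak4. Same-numbered libraries at 0 and 2 µM correlated in their deviations by 0.0845 to 0.199, all above those with different numbers (-0.154 to 0.0584). Same-numbered libraries at 10 µM correlated with the others by -0.145 to -0.0212. Whether the numbers pair the samples at 0 and 2 µM is thus not settled, and the main fit had no factor for them. With the replicate number as a block 54, 322 and 735 genes were called, Eif2ak2 stayed called between 10 µM and 2 µM at 0.63 (adjusted p = 0.00177), and no call of the other members changed.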
